A study of Mus musculus with 18 samples.

Results

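The immediate early genes are switched on within minutes of a growth factor, cytokine or stress signal, because their promoters are already bound by factors that kinases activate without new protein synthesis. Here 10 of them were followed in mouse liver: the AP-1 subunits Fos, Fosb, Jun and Junb, the transcription factors Egr1, Nr4a1 and Atf3, the small nuclear protein Ier2, the phosphatase Dusp1 that shuts the signal off, and the growth regulator Myc. They were taken by name from the deposited table of read counts, which holds 35275 genes, and each of the 10 names matched 1 row. In liver these genes are known for their rapid response to partial hepatectomy, fasting hormones and toxic injury, and AP-1 and Myc are known for their parts in hepatocyte proliferation and liver cancer.

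The study sequenced RNA from NRF2 knockout (KO) and wild type (WT) mice after diethylnitrosamine (DEN), a carcinogen that hepatocytes convert into a DNA-alkylating agent. NRF2 is the product of Nfe2l2 and activates the antioxidant and detoxification response. The times sampled after DEN were, 2D (2 days), 4W (4 weeks) and 36W (36 weeks), and each of the 6 groups had 3 libraries: KO 2D, WT 2D, KO 4W, WT 4W, KO 36W and WT 36W. All animals had a mixed B6;129P2 background and all had received DEN, so no group shows the level without the carcinogen. The labels give the time after DEN in the place of an age, do not name the knockout allele, and do not say whether libraries came from separate animals, so p-values measure the spread between these samples. The source is labelled as liver tumor at 2D but as liver tissue at both later times, and the sample codes begin with B at 2D and with A at the later times. These label differences cannot be told apart from time.

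Totals ranged from 15.3 to 24.2 M counts per library. A count of 3, taken as the most that a count of 0 allows, corresponds to 0.132 to 0.207 CPM, the counts of a gene per M counts of its library, for counting error only. Levels below are CPM scaled over all 18 libraries, and levels of different genes are compared as CPM per kilobase of gene model. The targeted gene Nfe2l2 had 43.3, 66.3 and 67.8 CPM in KO 2D, against 73.2, 70.2 and 76.2 CPM in WT 2D. It lay between 54.0 and 56.3 CPM in KO 4W and between 90.0 and 109 CPM in WT 4W, and between 37.8 and 43.0 CPM in KO 36W and between 105 and 127 CPM in WT 36W, so the groups did not overlap at any time. Summed hepatocyte markers ranged from 79637 to 247108 CPM over the 18 libraries, and at 2D the genotypes did not overlap, with 101410 to 115984 CPM in KO and 79637 to 86307 CPM in WT. The single markers were mixed at 2D. Alb, Ttr and Fgb had log2 differences of KO over WT of 0.44, 0.41 and 0.66. Apoa1, Apoa2, Serpina1a and Hnf4a had -0.07, -0.05, -0.22 and -0.20. The median of the 7 tested markers was -0.05. WT 2D replicate 3 stood apart, with 5746 CPM of summed stellate cell and fibroblast markers against 849 and 959 CPM in the other WT 2D libraries and 927 to 1342 CPM in the KO 2D libraries. It also had 185 CPM of summed cholangiocyte markers, against 14.9 and 14.1 CPM in the other WT 2D libraries and 16.5 to 21.9 CPM in KO 2D. In whole tissue, fewer cells of a type and less RNA per cell cannot be told apart.

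Promoter sequences show what these genes hold just upstream of their starts. RefSeq windows on GRCm38.p6 (mm10) were available for 7 members, Fos, Fosb, Jun, Junb, Nr4a1, Atf3 and Dusp1, and the 250 bases before the start were searched on both strands. The 3 members that were higher in KO when the times were averaged are printed 5′ to 3′ along the gene's own strand. Capitals mark TGACG, the core of the cyclic AMP response element, read as CGTCA on the other strand, and in Nr4a1 also the site GCGGGGGCG of the EGR factors, which stands there on the other strand. The window of Fos is chr12:85473640-85473889 (plus strand), that of Junb is chr8:84978749-84978998 (minus strand) and that of Nr4a1 is chr15:101266596-101266845 (plus strand).
Fos: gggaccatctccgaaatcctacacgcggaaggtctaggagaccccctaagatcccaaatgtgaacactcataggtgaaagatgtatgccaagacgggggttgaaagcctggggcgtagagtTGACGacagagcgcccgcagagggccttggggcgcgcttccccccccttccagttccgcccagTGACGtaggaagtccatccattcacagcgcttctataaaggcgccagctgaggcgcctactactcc
Junb: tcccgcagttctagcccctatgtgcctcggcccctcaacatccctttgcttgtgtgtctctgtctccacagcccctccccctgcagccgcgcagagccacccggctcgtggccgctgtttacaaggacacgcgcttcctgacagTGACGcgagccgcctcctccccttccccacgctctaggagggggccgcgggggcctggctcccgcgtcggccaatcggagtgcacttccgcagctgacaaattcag
Nr4a1: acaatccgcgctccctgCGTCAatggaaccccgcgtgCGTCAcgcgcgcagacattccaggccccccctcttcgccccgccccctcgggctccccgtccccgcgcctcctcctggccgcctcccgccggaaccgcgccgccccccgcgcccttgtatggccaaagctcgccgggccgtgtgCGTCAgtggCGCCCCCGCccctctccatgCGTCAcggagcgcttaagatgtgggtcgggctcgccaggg
The core TGACG, which members of the CREB and ATF families can bind, was found in 6 of the 7 windows, against 17.8% of 32851 RefSeq windows of the same length. Nr4a1 held 4 matches, Dusp1 3, Fos 2, and Fosb, Junb and Atf3 1 each. The full element TGACGTCA, which contains that core, stood in Dusp1 alone among the 7, against 1.55% of all windows. GCGGGGGCG was found in Fosb and Nr4a1, against 2.57% of all windows. The core of the antioxidant response element to which NRF2 binds, TGACNNNGC, matched in Dusp1 alone, against 10.2% of all windows, and the E-box CACGTG of Myc and its relatives also matched in Dusp1 alone, against 6.02%. The AP-1 site TGANTCA and the CArG box of serum response factor matched none of the 7 windows, against 6.75% and 1.47% of all windows. Sites further upstream, sites with other spellings and the promoters of Egr1, Ier2 and Myc were not searched, so these genes may still hold such elements. Such matches describe letters and not occupied sites.

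The first question was which members differed between genotypes. Averaged over the 3 times, in one fit of all 18 libraries, 4 of 10 members passed the threshold of 0.05 (edgeR's quasi-likelihood test, Benjamini-Hochberg adjustment over all genes tested), where 2.73% of all genes did. Fos, Junb and Nr4a1 were higher in KO and Myc was lower. The median log2 difference of the 10 members was 0.31, against -0.01 over all genes. The members were chosen with earlier results of these data known. Here and below, an excess over the share of all genes is therefore a description and not independent support. At single times 0 of 10 members were called at 2D (0.165% of all genes), 2 of 9 at 4W (6.08%), where Fosb fell below the filter on low counts and was not tested, and 0 of 10 at 36W (0.037%).

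**Figure D1:**
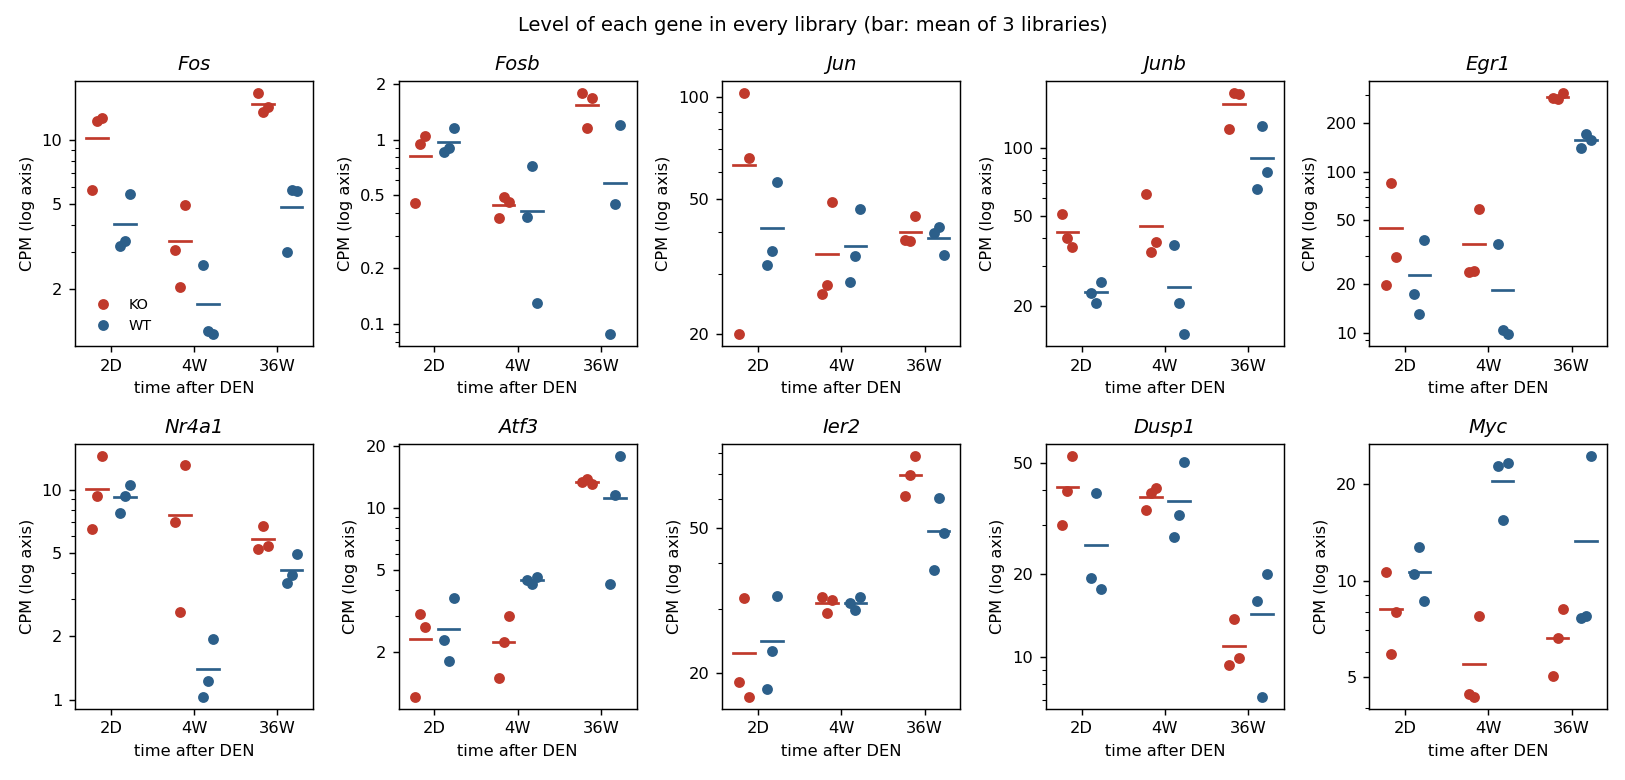
CPM of the 10 members on log axes, 1 panel per gene, with KO libraries (red) left of WT libraries (blue) at 2D, 4W and 36W after DEN. Points are single libraries and bars are means of 3. Fos in KO at 36W lies between 13.4 and 16.5 CPM, above the 2.99 to 5.83 CPM of WT, and Myc in KO at 4W lies between 4.34 and 7.75 CPM, below the 15.4 to 23.3 CPM of WT.

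Fos, the AP-1 subunit that has to pair with a Jun protein to bind DNA, had the higher mean in KO at every time. At 2D it had 5.81, 12.3 and 12.6 CPM in KO libraries, against 3.19, 3.35 and 5.57 CPM in WT libraries. At 4W it had 3.05, 2.06 and 4.94 CPM in KO, against 2.61, 1.28 and 1.24 CPM in WT. At 36W it had 16.5, 13.4 and 14.2 CPM in KO, against 2.99, 5.83 and 5.76 CPM in WT. The genotypes did not overlap at 2D and 36W, while at 4W 1 KO library lay below the highest WT library. The averaged log2 difference was 1.30 ± 0.23 (SE, 2.47-fold, adjusted p = 0.00605, n = 9 each). It kept its call when any 1 of the 18 libraries was left out, with log2 values from 1.16 to 1.44. At single times the differences missed the threshold, with 1.33 ± 0.35 at 2D (adjusted p = 0.153) and 1.63 ± 0.28 at 36W (adjusted p = 0.153). With DESeq2 the adjusted p was 0.0143 at 2D and 0.000109 at 36W, and in the fit of all 18 libraries the 36W difference had an adjusted p of 0.0401.

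Junb, an AP-1 subunit that pairs with Fos and is a weaker activator than Jun on many promoters, was also higher in KO. It had 51.0, 39.8 and 36.3 CPM in KO 2D libraries, against 22.8, 20.5 and 25.4 CPM in WT 2D libraries. At 4W the values were 62.7, 34.7 and 38.1 CPM in KO and 36.9, 20.6 and 15.0 CPM in WT. At 36W they were 121, 175 and 172 CPM in KO and 66.0, 125 and 78.0 CPM in WT. The genotypes did not overlap at 2D, where the hepatocyte marker sums did not overlap either and their part in the Fos and Junb levels was not tested. The single hepatocyte markers differed in direction at 2D, with a median log2 difference of -0.05. At 4W and at 36W 1 KO library lay just below the highest WT library. Averaged over the times the log2 difference was 0.86 ± 0.18 (1.82-fold, adjusted p = 0.0157), and it kept its call without any single library. The log2 difference was nearly the same size at each time, 0.88 ± 0.15 at 2D (adjusted p = 0.0889), 0.89 at 4W (adjusted p = 0.147, and 0.0306 without the low-count filter) and 0.82 at 36W (adjusted p = 0.324), none of which passed.

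Fosb and Jun, the other 2 AP-1 members, gave no difference between genotypes past the threshold. Fosb, a Fos relative best known from neurons, was close to the floor, with 2 to 30 counts per library. At 36W it had 1.79, 1.16 and 1.69 CPM in KO, against 0.0878, 0.445 and 1.20 CPM in WT, and 1 KO library lay within the WT range. At the earlier times it ranged from 0.374 to 1.04 CPM in KO and from 0.130 to 1.16 CPM in WT. Jun, the AP-1 subunit that can bind DNA as a pair with itself, had 19.96, 102 and 65.7 CPM in KO 2D, against 31.9, 35.2 and 56.1 CPM in WT 2D. The KO 2D libraries spanned the whole WT range. At 4W and 36W Jun lay between 26.1 and 49.0 CPM in KO and between 28.5 and 46.7 CPM in WT. Its gene model overlaps that of the antisense gene Junos over 689 bases, and whether counting used the strand is not given in the sources used here.

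The pattern was uneven among the other transcription factors. Egr1, a zinc finger factor induced by serum response factor and its ETS partners, had 287, 283 and 307 CPM in KO 36W, against 141, 171 and 157 CPM in WT 36W. These groups did not overlap and each was narrow, but the log2 difference of 0.93 ± 0.14 missed the threshold (adjusted p = 0.139 in edgeR, 6.68e-06 in DESeq2). At 2D Egr1 had 19.8, 84.6 and 29.7 CPM in KO and 17.5, 13.01 and 37.8 CPM in WT, and at 4W 23.9, 24.3 and 58.2 CPM in KO and 35.5, 10.4 and 9.83 CPM in WT. The genotypes overlapped at both of those times. Averaged over the times the log2 difference was 0.93 (adjusted p = 0.145), and among fits that left out 1 library it passed only without WT 4W replicate 1 (1.22, adjusted p = 0.0419).

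Nr4a1, an orphan nuclear receptor that in liver is induced by glucagon through cyclic AMP, differed most at 4W. It had 7.04, 2.60 and 13.03 CPM in KO 4W libraries, against 1.03, 1.23 and 1.95 CPM in WT 4W libraries. Every KO library was above every WT library, but the KO values spread widely. The log2 difference was 2.43 ± 0.55 (adjusted p = 0.0337). The call rested on the full set of libraries: it held without KO 4W replicate 2 (2.84, adjusted p = 0.00713) and was lost without any other library, with the adjusted p between 0.0654 and 0.126. At 2D Nr4a1 had 6.52, 9.28 and 14.5 CPM in KO and 7.72, 9.36 and 10.5 CPM in WT, which overlap. At 36W it had 5.24, 6.72 and 5.41 CPM in KO and 3.60, 3.90 and 4.94 CPM in WT, which do not. The averaged difference of 1.02 ± 0.25 (adjusted p = 0.0358) was lost when 1 library was left out in 12 of 18 cases, with the adjusted p reaching 0.0932.

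Atf3, a stress-induced member of the ATF family that often acts as a repressor, went the other way at 4W, with 1.50, 2.22 and 2.98 CPM in KO and 4.45, 4.30 and 4.62 CPM in WT. The groups did not overlap, and the log2 difference of -0.998 ± 0.31 missed the threshold (adjusted p = 0.0951). At 36W the KO libraries were close together at 13.4, 13.8 and 13.02 CPM, while the WT libraries spread over 4.26, 11.5 and 17.9 CPM. At 2D the ranges were 1.21 to 3.06 CPM in KO and 1.80 to 3.66 CPM in WT.

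Ier2 and Dusp1 did not differ past the threshold between genotypes at any time. Ier2 had 60.8, 69.8 and 78.5 CPM in KO 36W, against 38.2, 60.1 and 48.4 CPM in WT 36W, a log2 difference of 0.54 (adjusted p = 0.348) with no overlap. At 4W it was the steadiest member, with 29.3 to 32.4 CPM in KO and 29.8 to 32.3 CPM in WT. Dusp1, the phosphatase that inactivates JNK and p38, had 29.9, 39.5 and 53.0 CPM in KO 2D, against 19.3, 38.9 and 17.6 CPM in WT 2D. At 36W it had 9.37, 13.7 and 9.92 CPM in KO, against 16.0, 7.21 and 19.9 CPM in WT, and the groups overlapped at both times.

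Myc, the E-box binding factor that with its partner Max drives ribosome production and growth, was the only member called lower in KO (gene at chr15:61985341-61990374, plus strand). It had 4.42, 4.34 and 7.75 CPM in KO 4W libraries, against 22.7, 15.4 and 23.3 CPM in WT 4W libraries. The log2 difference was -1.90 ± 0.26 (adjusted p = 0.00444), and it held without any single library, with the adjusted p between 0.00149 and 0.0287. At 2D Myc had 10.6, 5.89 and 7.99 CPM in KO and 10.5, 12.8 and 8.63 CPM in WT. At 36W it had 5.03, 6.60 and 8.17 CPM in KO and 7.64, 7.76 and 24.5 CPM in WT. The genotypes overlapped at both times, and WT 36W replicate 3 alone matched the WT 4W level. That library also had the highest summed neutrophil markers of its group, 26.8 CPM against 4.66 and 6.92 CPM, and the highest macrophage markers, 589 CPM against 208 and 224 CPM; the part of these cells in its Myc level was not tested. Averaged over the times the log2 difference was -1.09 ± 0.23 (adjusted p = 0.0178) and was kept without any single library.

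**Figure D2:**
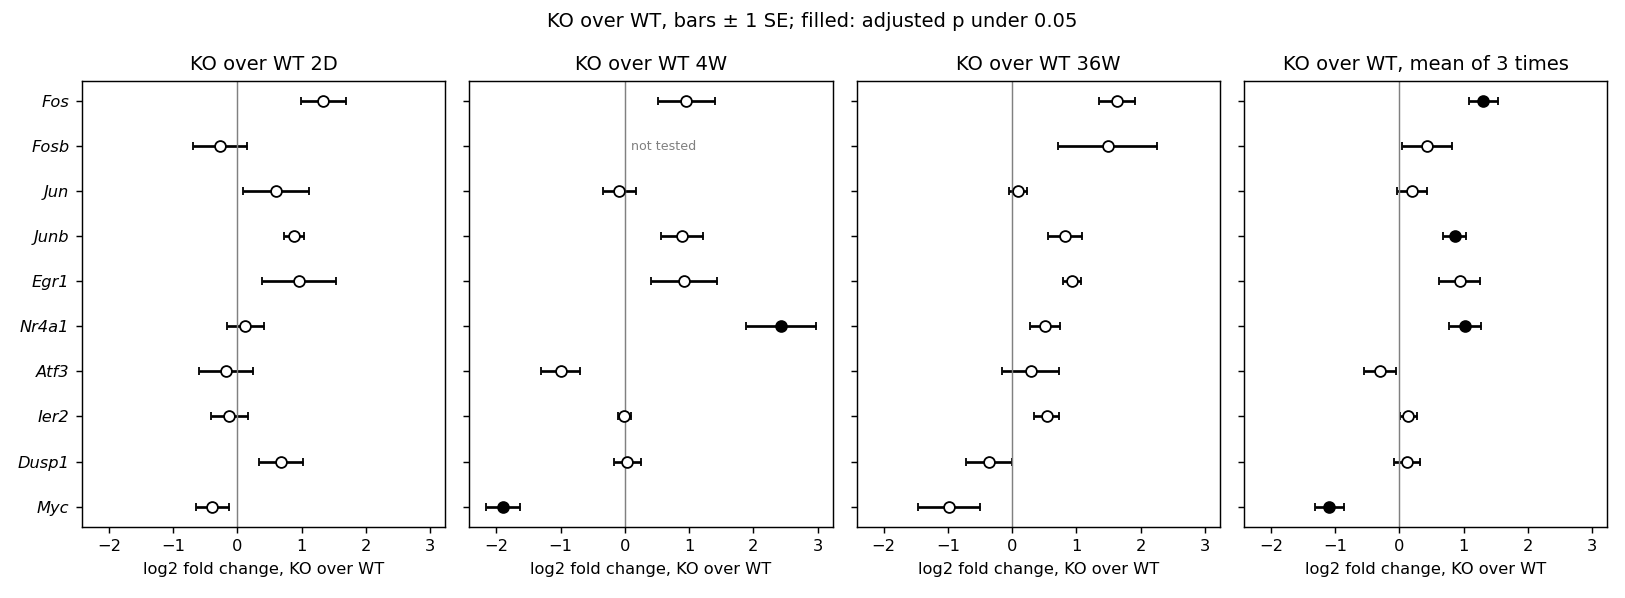
Log2 difference of KO over WT for each member at 2D, 4W and 36W and averaged over the 3 times, with bars of 1 SE and filled points for an adjusted p under 0.05 in edgeR's quasi-likelihood test. Filled points are Nr4a1 (2.43) and Myc (-1.90) at 4W and Fos (1.30), Junb (0.86), Nr4a1 (1.02) and Myc (-1.09) in the average.

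Counts of members without overlap between genotypes can be set beside all genes. At 2D Fos and Junb were higher in KO without overlap, 2 of 10 members against 12.8% of all genes. At 4W Nr4a1 was higher and Atf3 and Myc were lower without overlap, 3 of 9 members against 27.9% of all genes in either direction. At 36W Fos, Egr1, Nr4a1 and Ier2 were higher without overlap, 4 of 10 members against 8.24% of all genes. At an unadjusted p under 0.05 there were 2 members at 2D, Fos and Junb (16.1% of all genes), and 4 at 36W, Fos, Junb, Egr1 and Ier2 (12% of all genes). At 4W these were Junb and Nr4a1, higher in KO, and Atf3 and Myc, lower in KO (22.1% of all genes). DESeq2 called Fos and Junb at 2D, where it called 5.02% of all genes, and Fos and Egr1 at 36W, where it called 1.93%. Without WT 2D replicate 3, the library rich in stellate cell, fibroblast and cholangiocyte markers, edgeR called Fos (1.62, adjusted p = 0.0190) and Junb (0.95, adjusted p = 0.0101) at 2D, with 13.1% of all genes called in that fit.

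Whether the genotype difference itself changed with time was tested as a difference of differences. In each of the 3 contrasts 0 of 10 members passed, where 1.34% of all genes did for 4W minus 2D, 0.565% for 36W minus 4W and 3.04% for 36W minus 2D. At an unadjusted p under 0.05 the shares of all genes were 16.4%, 16% and 20.5% in the same order of contrasts. Nr4a1 came nearest, with a log2 value of 2.30 ± 0.61 for 4W minus 2D (adjusted p = 0.0730) and -1.95 ± 0.62 for 36W minus 4W (adjusted p = 0.136). DESeq2 called Nr4a1 in both contrasts (adjusted p = 0.0110 and 0.0468), where it called 4.57% and 5.1% of all genes. At an unadjusted p under 0.05 stood Nr4a1 and Myc for 4W minus 2D (Myc -1.52, adjusted p = 0.195), Nr4a1 for 36W minus 4W, and Dusp1 for 36W minus 2D (-1.07, adjusted p = 0.243). A change of the genotype difference with time thus missed the threshold in the reported edgeR fit for both Nr4a1 and Myc, the members called at 4W. Among edgeR fits that left out 1 library, Nr4a1 also missed it in 11 of 12 for 4W minus 2D and for 36W minus 4W. The lowest adjusted p was 0.0172 and 0.0490 in that order. With the replicate number as a block, Nr4a1 passed in edgeR for 4W minus 2D.

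Between times 1 to 6 of the 10 members passed. At 4W against 2D few were called: 1 of 10 in KO (24.2% of all genes), where Fos had a log2 change of -1.61 ± 0.39 (adjusted p = 0.00745), and 2 of 10 in WT (37.7% of all genes). In WT Fos fell by 1.23 (adjusted p = 0.0268) and Nr4a1 fell by 2.72 ± 0.46 (adjusted p = 0.000314). The WT fall of Fos lost its call without WT 2D replicate 3, WT 4W replicate 2 or WT 4W replicate 3, with the adjusted p between 0.0987 and 0.108. Nr4a1 in KO had 7.04, 2.60 and 13.03 CPM at 4W against 6.52, 9.28 and 14.5 CPM at 2D, which overlap. In KO 1 more member was called when 1 library was left out, Jun without KO 2D replicate 1 (-1.29, adjusted p = 0.00700) and Ier2 without KO 2D replicate 2.

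At 36W against 4W most members moved. In KO 6 of 10 were called, where 29.8% of all genes were, and the call count stayed at 6 without any single library of the groups compared. Egr1 rose 8.23-fold (log2 3.04 ± 0.59, adjusted p = 0.00103), Atf3 5.98-fold (2.58 ± 0.45), Fos 4.39-fold (2.13 ± 0.40), Junb 3.46-fold (1.79 ± 0.31) and Ier2 2.24-fold (1.16 ± 0.23), while Dusp1 fell by 1.77 ± 0.37. Fosb missed the threshold (1.79, adjusted p = 0.0551), and passed with the filter of 1 CPM in 3 samples, in DESeq2 and in the fit of the 6 libraries compared, with adjusted p-values of 0.0464, 0.0313 and 0.0150. In WT 6 of 10 were also called, where 21% of all genes were. Ier2 missed the threshold (0.66, adjusted p = 0.0524) and passed in 5 of 7 alternatives. Egr1 rose 8.40-fold (3.07 ± 0.59, adjusted p = 0.00171), Junb 3.71-fold (1.89 ± 0.32), Nr4a1 2.96-fold (1.57 ± 0.46), Fos 2.82-fold (1.50 ± 0.41) and Atf3 2.51-fold (1.33 ± 0.42), and Dusp1 fell by 1.35 ± 0.36. The WT calls of Fos, Nr4a1, Atf3 and Dusp1 were less firm: without WT 4W replicate 2, WT 4W replicate 3 or WT 36W replicate 2 the WT count was 3 of 10, and Atf3 was lost without any library but WT 36W replicate 1. The median log2 change of the members was 1.48 in KO and 0.99 in WT, against -0.02 and 0.01 over all genes. Hepatocyte marker sums lay at 185018 to 218360 CPM in KO 36W and 164645 to 247108 CPM in WT 36W, against 113110 to 139715 CPM in KO 4W and 93955 to 126160 CPM in WT 4W, and their part in the changes was not tested. The median log2 change of the 7 tested hepatocyte markers was 0.21 in KO and 0.12 in WT.

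Against 2D, the 36W libraries differed in 5 of 10 members in KO (33.7% of all genes) and in 5 of 10 in WT (37.8% of all genes). In KO Egr1 rose by a log2 value of 2.71 ± 0.58, Atf3 by 2.54 ± 0.44, Junb by 1.88 ± 0.31 and Ier2 by 1.62 ± 0.23, and Dusp1 fell by 1.89 ± 0.37. In WT Egr1 rose by 2.78 ± 0.58, Atf3 by 2.11 ± 0.43, Junb by 1.97 ± 0.32 and Ier2 by 0.99 ± 0.23, and Nr4a1 fell by 1.15 ± 0.42 (adjusted p = 0.0414), a call lost without any 1 of the 6 libraries. Dusp1 in WT changed by -0.82 (adjusted p = 0.0825). Among the transcription factors Egr1, Junb and Atf3 were thus called higher at 36W than at both earlier times in both genotypes, while Myc passed in no comparison of times in that fit. For Atf3 in WT the 36W and 4W libraries overlapped, with 4.26 CPM in WT 36W replicate 1 against 4.30 to 4.62 CPM in WT 4W. In WT Myc stood at 22.7, 15.4 and 23.3 CPM at 4W against 10.5, 12.8 and 8.63 CPM at 2D, a log2 difference of 0.95 that missed the threshold (adjusted p = 0.0668) and passed in the fit of the 6 libraries compared (adjusted p = 0.0142).

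**Figure D3:**
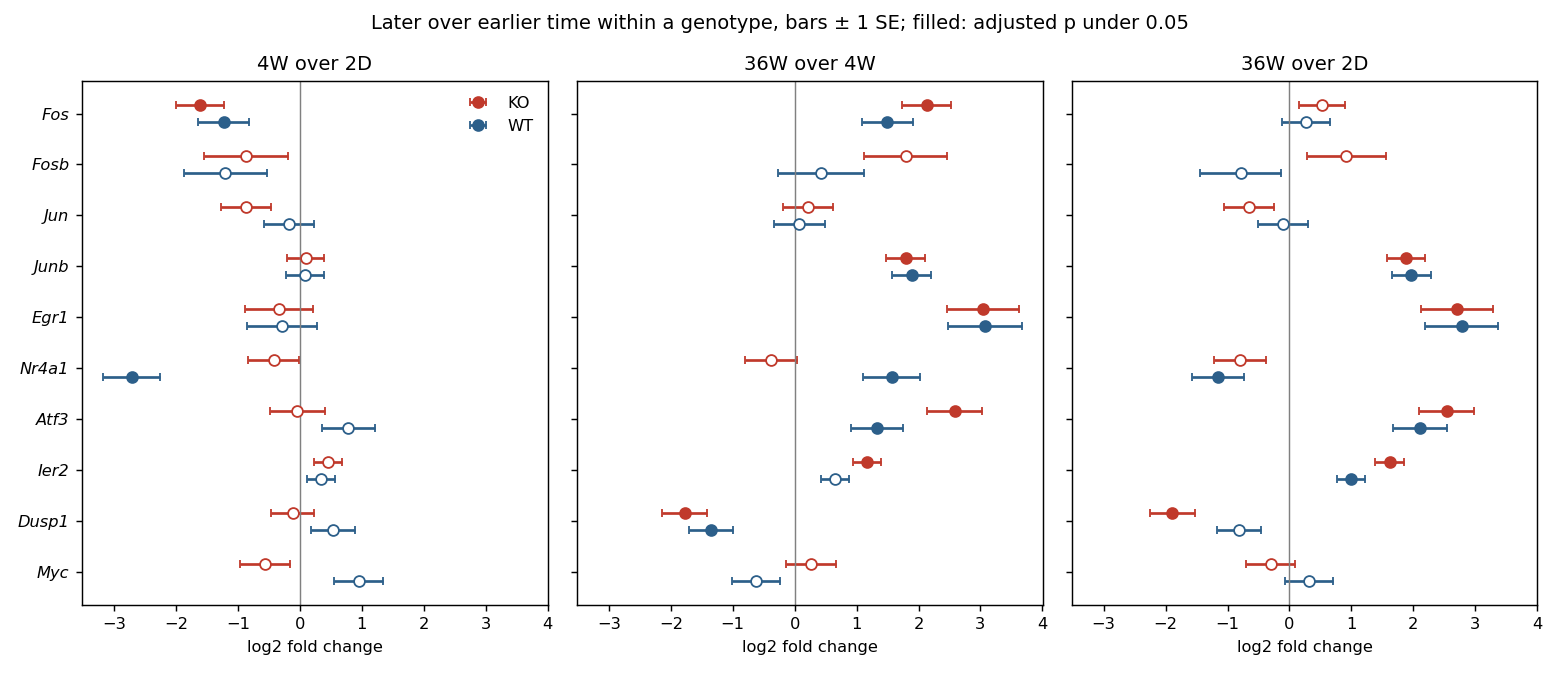
Log2 change of each member between times within a genotype, KO (red) above WT (blue), with bars of 1 SE and filled points for an adjusted p under 0.05. Egr1 has the largest rise at 36W over 4W, 3.04 in KO and 3.07 in WT, and Dusp1 is the only member called lower in that comparison, by 1.77 in KO and by 1.35 in WT.

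Per kilobase, the order of the members differed between times. At 36W Junb led with 84.9 CPM per kilobase in KO and 48.8 in WT, followed by Egr1 (65.1 in KO, 34.8 in WT) and Ier2 (45.8 in KO, 32.1 in WT), and then by Jun (11.7 to 13.96 in KO, 10.7 to 12.9 in WT). Junb and Egr1 overlapped between libraries in both genotypes, and Ier2 and Jun did not. At 2D the first 4 places were held by Junb, Jun, Dusp1 and Ier2 in KO, with means of 23.04, 19.7, 17.6 and 15.0 CPM per kilobase, and by Ier2, Jun, Junb and Dusp1 in WT, with means of 16.1, 12.9, 12.5 and 10.9 CPM per kilobase. Within each of these 2 groups all neighbours in that order overlapped. Myc held the fifth place in WT 4W, with 8.56 CPM per kilobase, above Egr1 with 4.14, and the seventh in KO 4W, with 2.30 CPM per kilobase, below Nr4a1 with 3.06. Fosb was the lowest member in all 6 groups, between 0.109 and 0.412 CPM per kilobase.

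Within groups the members varied together only in part. After the group means were removed, the 45 pairs had correlations of log2 CPM from -0.64 to 0.79 over 18 libraries, with a median of 0.27. Of these, 13 were above 0.5 and 12 were below 0. Fos and Egr1 had the highest value (0.79), followed by Fosb with Atf3 (0.74) and Fos with Atf3 (0.71), and Junb with Dusp1 had the lowest (-0.64). KO 2D replicate 1 shows the mixed pattern in a single library: it had the lowest Fos, Fosb, Jun, Egr1, Nr4a1, Atf3 and Dusp1 of its group and the highest Junb and Myc. The pairs share library, depth and tissue composition, and the values are given as a description.

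**Figure D4:**
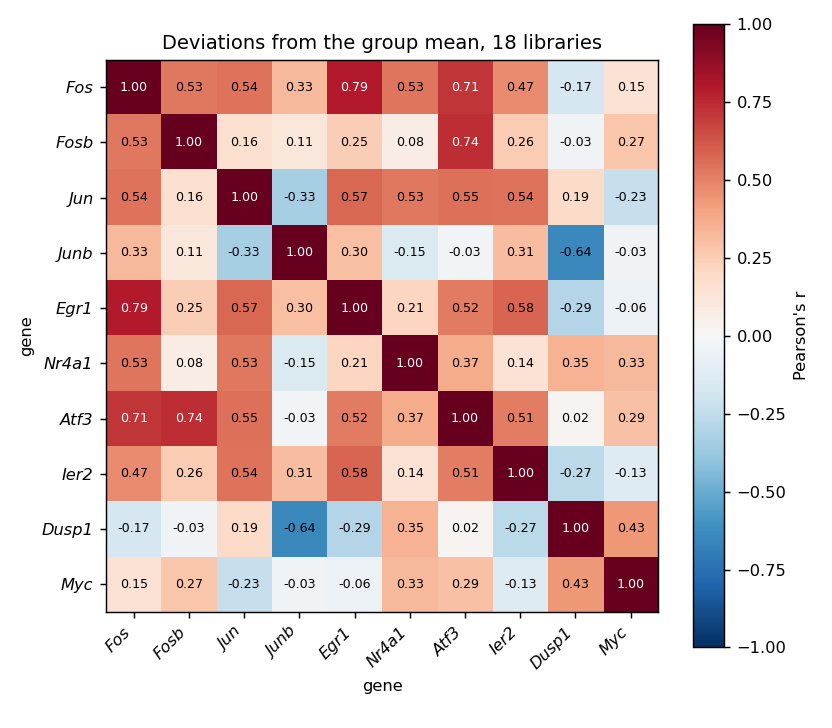
Pearson correlation of log2 CPM for each pair of members over 18 libraries after removal of the group means, from blue (negative) to red (positive). Fos and Egr1 have the highest value, 0.79, and Junb and Dusp1 the lowest, -0.64.

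Across the 18 libraries, with group differences left in and 11927 genes compared, the genes most like Fos in log2 CPM were Myof (r = 0.91), Sema4b, Il17ra and Icosl (0.87 each) and Dab2ip (0.86). Those most like Myc were Tsku (0.80), Fam162a (0.77), BC031181 and Pfkfb1 (0.76 each) and Ube2k (0.75). After the group means were removed other genes came first, led by Cenpv for Fos (0.86) and by Gadd45g for Myc (0.90).

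Genes related to the members were taken from lists made with earlier results of these data known. At 4W, 25 of 29 listed other immediate early genes were tested and 1 was higher in KO, against 1.95% of all genes: Zfp36, which destabilises AU-rich mRNAs and had 65.7 ± 4.23 CPM in KO and 45.3 ± 3.06 CPM in WT (SD, n = 3 each; log2 0.53, adjusted p = 0.0168). The median of the list was 0.34, against 0.01 over all genes. Of 14 MAP kinase phosphatases and feedback inhibitors 0 passed in edgeR (3 at an unadjusted p under 0.05, where 22.1% of all genes were), of 12 tested AP-1 target genes 0 (1 unadjusted), and of 18 tested growth factors and receptors 0 (3 unadjusted). Among 19 upstream factors 1 was lower in KO, near the 4.13% of all genes that were lower: the p38 kinase gene Mapk14 (-0.38, adjusted p = 0.0491).

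Genes that accompany Myc in growth were lower in KO at 4W in 5 of 22 cases, against 4.13% of all genes, and none of the 22 was higher. Srm, the spermidine synthase, had 13.4 ± 1.96 CPM in KO 4W and 28.5 ± 5.06 CPM in WT 4W (-1.10, adjusted p = 0.00588). Odc1, the first enzyme of polyamine synthesis, had 67.5 ± 2.09 CPM in KO 4W and 101.7 ± 5.41 CPM in WT 4W (-0.60, adjusted p = 0.00644). Cad, which starts pyrimidine synthesis, had 12.4 ± 0.87 CPM in KO 4W and 21.7 ± 3.45 CPM in WT 4W (-0.81, adjusted p = 0.0136). The median of the list was -0.39. Of the 12 Myc partners and antagonists 1 was lower, the Max-like gene Mlx (-0.62, adjusted p = 0.0237). The KO effect on Srm was lower at 4W than at 2D (log2 difference of the effects -1.32, adjusted p = 0.0307).

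Other groups of genes moved at 4W as well, and their part in the results of the members was not tested. Of 8 inducible heat shock genes 6 were lower in KO, against 4.13% of all genes, with summed levels of 1026 to 1108 CPM in KO 4W and 2384 to 2811 CPM in WT 4W. Of 8 listed fasting genes 5 were higher in KO, against 1.95% of all genes. Among them were Igfbp1 (3.39, adjusted p = 0.00582), G6pc (1.98, adjusted p = 0.0115) and Pdk4 (2.39, adjusted p = 0.0157). The median log2 difference of that list was 1.11 at 4W but -0.40 at 2D, where 0 of the 8 passed. Summed neutrophil markers lay at 6.72 to 19.1 CPM in KO 4W and at 2.28 to 6.03 CPM in WT 4W, with up to 2 of the 7 genes at 0 in a library of either group. KO 4W replicate 3, the library highest in Fos, Jun, Egr1, Nr4a1, Atf3, Dusp1 and Myc of its group, had 1649 CPM of stellate cell and fibroblast markers, against 380 and 462 CPM in the other KO 4W libraries. At 2D and 36W edgeR called 0 genes of these lists between genotypes, the marker lists left out. At an unadjusted p under 0.05 stood 30 of 136 genes at 2D (16.1% of all genes), 49 of 136 at 4W (22.1%) and 22 of 140 at 36W (12%).

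**Figure D5:**
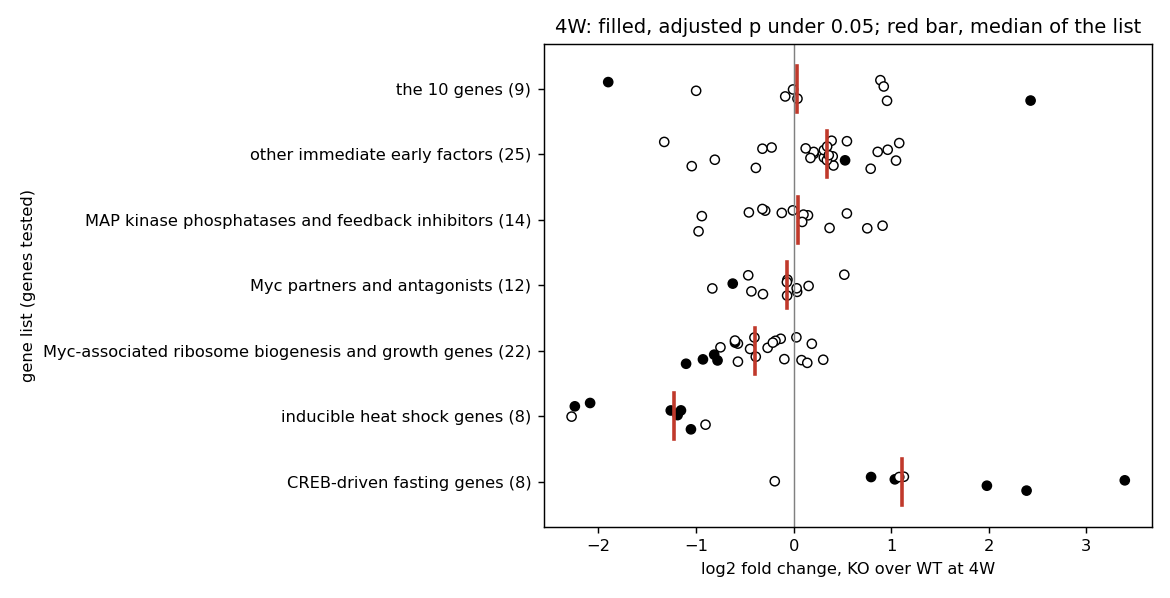
Log2 difference of KO over WT at 4W for the 10 members and 6 related lists, 1 point per tested gene, filled for an adjusted p under 0.05, with the list median as a bar. The Myc-associated growth genes have a median of -0.39 with 5 of 22 called lower, and the other immediate early genes a median of 0.34 with 1 of 25 called higher.

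Over the 3 times averaged, 0.921% of all genes were higher in KO and 1.81% lower. Zfp36 was higher in KO (0.44, adjusted p = 0.0340, 1 of 28 tested), as were the cytokine gene Il1b (1.53, adjusted p = 0.0272) among 20 growth factors and receptors and the matrix gene Fn1 (0.42, adjusted p = 0.0313) among 13 AP-1 target genes. Of the 22 Myc-associated genes 3 were lower: the nucleolar genes Nolc1 (-0.45) and Rrs1 (-0.37) and the transferrin receptor gene Tfrc (-0.82). Of 8 inducible heat shock genes 4 were lower, with a list median of -0.51, against -0.12 for the Myc-associated genes.

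The related genes also moved with time. At 36W against 4W in KO, 8 of 28 other immediate early genes rose and 1 fell, led by Gadd45a (2.55), Maff (2.43) and Fosl1 (3.66), where 14.5% of all genes rose. In WT 7 of 28 rose and 1 fell. Among 14 MAP kinase phosphatases and feedback inhibitors 4 rose in KO and 5 rose in WT, where 11.9% of all genes rose in WT. Dusp5, a phosphatase of ERK, rose by a log2 value of 3.76 ± 0.57 in KO and 4.26 ± 0.59 in WT, and Dusp4 by 3.24 ± 0.55 in KO and 2.99 ± 0.53 in WT, opposite in direction to Dusp1. At 4W against 2D, 6 of 28 other immediate early genes fell in KO, where 10.8% of all genes fell, and 13 of 28 fell in WT, where 18.6% of all genes fell, and in both cases 0 rose. The clock gene Per1 had 14.5 ± 4.29 CPM in KO 4W against 39.2 ± 13.4 CPM in KO 2D, and 12.7 ± 1.55 CPM in WT 4W against 102.2 ± 31.4 CPM in WT 2D.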

How the data were processed

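RNA sequencing of 18 libraries was analysed from the raw read counts per gene that the authors deposited in 1 table. The counts are whole numbers with no normalisation. The submitters' processing notes list mm10 as the genome build and STAR 2.5, HTSeq and DESeq2 as tools; their settings, the annotation release and the strand setting are not given in the sources used here. Groups and replicate numbers came from the sample titles.

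For KO over WT at 1 time, the 6 libraries from that time were fitted alone. Differences of the KO effect, comparisons of times and the average over times used 1 fit of all 18 libraries with 6 group means. The tool was edgeR 4.0.16 in R 4.3.3 (quasi-likelihood F test, TMM scaling, filterByExpr), with Benjamini-Hochberg adjustment over all genes tested and a threshold of 0.05. The SE is the log2 change divided by the square root of F. For 1 comparison of 3 against 3 libraries, exact permutation tests reach no p under 0.1. The pipeline was tested on simulated data for KO over WT at each time and for 1 difference of the KO effect between times. Comparisons of times and the average over times were not simulated. The 10 members and the lists were chosen with earlier results of these data known. All members are named, from each list described the called genes with the smallest p, at most 3 per comparison, and the 5 genes most like Fos and Myc among genes averaging at least 1 in log2 CPM (prior count 2).

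Alternatives were DESeq2 1.42.0, DESeq2 size factors or library size alone in edgeR, no low-count filter, a CPM of 1 or more in 3 samples, a replicate block, the fit of all 18 or of 6 libraries, and leaving out each library. The extent of overlap between Jun and its antisense neighbour was taken from the gene positions deposited with the counts. Promoter windows came from RefSeq.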

Additional observations from a re-analysis of the deposited data

How the results depend on the processing

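In the alternatives calls were counted over all members, but log2 values were kept only for members with an unadjusted p under 0.05 in a comparison. None of those values changed sign. The signs of the other values, some near 0, were not compared. At 2D 0 of 10 members were called in the reported fit, 1 without the low-count filter (0.384% of all genes) and 2 in DESeq2 (5.02%); at 36W 0 were called, 2 in DESeq2 (1.93%) and 1 in the fit of all 18 libraries (2.7%). At 4W 2 were called, and 3, with Junb, without the filter (5.63%) and with the block (6.67%). For the KO effect at 4W minus that at 2D, 0 were called, 1 with the replicate number as a block and 1 in DESeq2; for 36W minus 4W, 1 was called in DESeq2. The cause was not tested. Leaving out 1 library gave 0 to 2 members at 2D, 1 to 3 at 4W, 0 to 0 at 36W and 3 to 4 in the average. It gave 1 to 2 for KO 4W over 2D, 6 to 6 for KO 36W over 4W, 5 to 6 for KO 36W over 2D, 1 to 3 for WT 4W over 2D, 3 to 7 for WT 36W over 4W and 4 to 5 for WT 36W over 2D. The differences of the KO effect gave 0 to 1 (4W minus 2D), 0 to 1 (36W minus 4W) and 0 to 0 (36W minus 2D). Of single members, Fos and Dusp1 for WT 36W over 4W missed the threshold in the fit of 6 libraries (adjusted p = 0.0553 and 0.0594), as did Atf3 there (0.101) and with library size alone (0.0598). Dusp1 for WT 36W over 2D passed with library size alone (-1.21). Library size alone moved the median log2 change of all genes there to -0.40, against -0.01 as reported.

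The correlations of same-numbered KO and WT deviations ranged from -0.14 to 0.29. Differently numbered libraries were not compared, so these values do not show whether the replicate numbers pair the samples. With the block, Junb at 4W (0.94, adjusted p = 0.0102), Nr4a1 for 4W minus 2D (2.29, adjusted p = 0.0447) and Ier2 for WT 36W over 4W (0.63, adjusted p = 0.0476) passed. Junb at 4W also passed without the low-count filter (adjusted p = 0.0306) and without WT 4W replicate 1 (0.0288), and Ier2 also in DESeq2, under both other filters and in the fit of 6 libraries, with adjusted p-values down to 0.0379. Depth limits Fosb most, at 2 to 30 counts per library.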
